A study of Mus musculus with 11 samples.

Results

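The genes described here are 10 transcription regulators of photoreceptor fate other than nuclear receptors: Crx, Otx2, Neurod1, Prdm1, Sall3, Casz1, Samd7, Pias3, Mef2c and Mef2d. They were taken by symbol from a table of 23284 genes, and 10 of 10 were in it and passed the filter on low values. Whole retina of mice at postnatal day 21 was compared between 5 wild-type mRNA libraries and 6 of Nrl knock-out (Nrl-/-) mice. The labels give no strain and no allele, and do not state that libraries came from separate animals, so the tests measure spread between samples that may be partly technical. Values are normalized counts, which are reads per gene divided by 1 size factor per library.

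Otx2, a homeobox gene, starts the photoreceptor fate and switches on its relative Crx, which activates genes of both rods and cones. Nrl, a leucine zipper factor, then directs these cells to become rods, and in mice without Nrl they take on features of short-wavelength cones. The other regulators act around this core as partners (Neurod1, a basic helix-loop-helix or bHLH factor, and the MADS-box factors Mef2c and Mef2d), as repressors of other fates (Prdm1, Casz1, Samd7), as a SUMO ligase (Pias3) or as a zinc finger factor of mouse cones (Sall3).

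Sall3 and Prdm1 were 6.52-fold and 4.71-fold higher in knock-out retina, as ratios of mean normalized counts, and Otx2 and Neurod1 were 1.55-fold and 1.44-fold higher. Mef2c was 11.8-fold and Samd7 2.14-fold lower. Crx, Casz1, Pias3 and Mef2d differed by much less. In all, 5 of the 10 were called higher and 4 lower at a limma adjusted p under 0.05, where 46.3% of 14584 tested genes were called, 23.6% higher and 22.7% lower. Of the 10, 2 rose and 2 fell at least 2-fold, where 5.17% and 2.6% of tested genes did, 7.77% in all. The genotypes did not overlap for 7 of the 10 genes, as for 30.9% of tested genes. The median log2 fold change was 0.01 over the 10 and -0.0073 over tested genes, and the median absolute one 0.58 and 0.19.

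**Figure D1:**
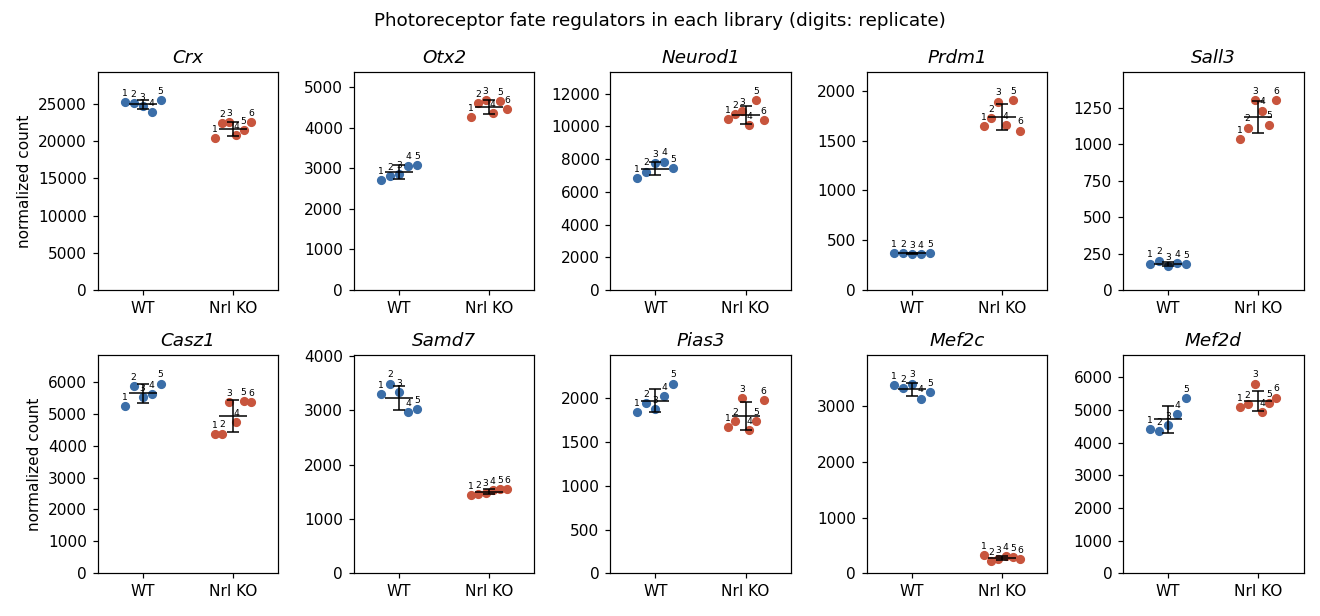
Normalized counts of the 10 regulators in each of the 5 wild-type (blue) and 6 Nrl knock-out (red) libraries, with replicate numbers beside the points and the mean and SD as black bars; each axis starts at 0. The genotypes are far apart for Prdm1, Sall3, Samd7 and Mef2c, while for Casz1, Pias3 and Mef2d their ranges overlap.

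Nrl stood at 39490.5, 38219, 34738, 35470.5 and 37165 normalized counts in wild-type replicates 1 to 5 and at 46.0 to 59.2, with a median of 51.0, in the knock-out, so each library matched its label. Of 5 rod markers 5 fell, and of 5 cone markers 5 rose. The libraries held 14907613 to 20685840 reads in genes, and the shallowest of each genotype, wild-type replicate 1 and knock-out replicate 2, had the highest scores of their genotypes on the second principal component (26.5 and 19.0). In whole retina, fewer cells of a type and less RNA per cell cannot be told apart. With libraries scaled to their total reads, the median log2 fold change over tested genes moved to 0.13. Of tested genes 40.2% were then called higher and 11.7% lower, 51.9% in all. Of the 10 members 5 were then higher and 2 lower. The 10 genes of highest count in a library held 9.74% to 11.1% of reads in wild type and 3.63% to 4.09% in knock-out. With totals that excluded the 10 genes of highest count, the median was 0.024, and 5 members were called higher and 4 lower. Crx (-0.17, limma adjusted p = 0.000567) and Casz1 (-0.17, limma adjusted p = 0.0393) then stayed called. Scaling to total reads is named where it ends the call of a gene or moves its log2 fold change by more than 1.5 times.

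Promoter windows of 5 of the genes are shown, 3 of them from genes that changed at least 2-fold (Prdm1, Samd7 and Mef2c) and those of Crx and Neurod1 because they hold repeated matches. Each is the 250 bases before an annotated transcript start, from RefSeq on GRCm38.p6, written 5′ to 3′ on the strand of the gene. Capitals mark TAATCC (reverse complement GGATTA), a core bound by Crx and Otx2, TGCTGA (reverse complement TCAGCA), a half-site of Maf-type factors such as Nrl, and CAGATG (reverse complement CATCTG), an E-box of Neurod1. For Mef2c the 1 window with matches is shown.
Crx, chr7:15879956-15880205, minus strand: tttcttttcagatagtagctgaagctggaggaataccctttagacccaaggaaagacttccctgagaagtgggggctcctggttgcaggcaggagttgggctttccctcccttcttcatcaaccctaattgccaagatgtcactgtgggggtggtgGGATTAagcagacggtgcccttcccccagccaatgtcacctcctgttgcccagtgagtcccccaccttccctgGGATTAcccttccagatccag
Neurod1, chr2:79456637-79456886, minus strand: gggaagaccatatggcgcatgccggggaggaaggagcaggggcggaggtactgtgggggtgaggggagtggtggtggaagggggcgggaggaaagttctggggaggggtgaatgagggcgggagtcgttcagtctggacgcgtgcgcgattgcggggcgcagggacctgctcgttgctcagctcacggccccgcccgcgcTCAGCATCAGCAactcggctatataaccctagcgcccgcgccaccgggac
Prdm1, chr10:44458749-44458998, minus strand: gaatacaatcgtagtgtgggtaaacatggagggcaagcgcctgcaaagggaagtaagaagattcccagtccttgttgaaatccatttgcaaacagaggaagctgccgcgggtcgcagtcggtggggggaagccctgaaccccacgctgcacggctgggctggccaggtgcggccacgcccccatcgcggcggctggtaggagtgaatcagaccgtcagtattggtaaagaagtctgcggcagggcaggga
Samd7, chr3:30746043-30746292, plus strand: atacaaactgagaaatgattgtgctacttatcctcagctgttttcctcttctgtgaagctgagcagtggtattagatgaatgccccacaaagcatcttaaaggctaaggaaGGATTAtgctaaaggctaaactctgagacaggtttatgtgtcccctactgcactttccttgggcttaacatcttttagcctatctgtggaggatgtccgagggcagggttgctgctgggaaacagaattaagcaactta
Mef2c, chr13:83573357-83573606, plus strand: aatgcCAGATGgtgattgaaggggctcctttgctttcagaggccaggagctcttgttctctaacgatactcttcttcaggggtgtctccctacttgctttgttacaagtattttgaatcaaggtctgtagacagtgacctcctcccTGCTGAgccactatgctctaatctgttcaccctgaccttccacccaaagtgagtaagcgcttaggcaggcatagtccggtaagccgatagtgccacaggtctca

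Of the 10 genes 9 had windows in the RefSeq table, 16 in all, and Sall3 is named only. TAATCC lay on either strand in 4 of them, those of Crx, Otx2, Casz1 and Samd7, and in 6.25% of 32851 windows of all genes. Crx held it 94 and 21 bases before its start, and Samd7 at 139 bases. TGCTGA lay in 4 windows (Neurod1, Otx2, Mef2c and Mef2d) and in 16.1% of all, with 2 matches end to end in Neurod1 at 50 and 44 bases. CAGATG lay in 2 (Otx2 and Mef2c) and in 14.4% of all. The letters of Mef2 proteins, CTA and TAG with any 4 bases between them, lay in 0 of them and in 3.2% of all. The Prdm1 window held no match. These are matches of letters, with no measure of binding.

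Crx, the homeobox activator of rod and cone genes, stood at 25295, 25189, 24742, 23981 and 25497 normalized counts in wild type. In the knock-out it ran from 20447 to 22568, with a median of 21939, so that each knock-out library lay below each wild-type library. The knock-out mean was 0.870 of the wild-type mean. The log2 fold change was -0.20 (SE 0.04, limma adjusted p = 0.000259), but -0.06 with total scaling (adjusted p = 0.121), which ended the call.

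Otx2, which acts before Crx, stood at 2698, 2808, 2857, 3065 and 3084 normalized counts in wild type and at 4253 to 4669, with a median of 4531, in the knock-out. The groups did not overlap, and the log2 fold change was 0.63 (SE 0.04, limma adjusted p = 5.78e-10). The antisense gene Otx2os1, whose reads could be mixed with those of Otx2 if strand was not used in counting, was at 210.4 ± 21.4 and 238 ± 19.2 normalized counts. Bipolar cells and the retinal pigment epithelium also make Otx2. Of 7 bipolar markers 4 rose and 1 fell (3 and 1 without the 2 shallowest libraries), and their summed level was 26906 to 33159 normalized counts in wild type and 36203 to 42189.5 in the knock-out. Of 8 pigment epithelium markers 2 were called higher, Pmel and Dct, and the sum was 844 to 1211 normalized counts in wild type and 939.8 to 1658 in the knock-out. The call of Dct ended in 9 of 22 alternatives, among them without wild-type replicate 2, 3, 4 or 5 or knock-out replicate 1, 2, 4 or 6 (0.77 to 1.02). The part of these cells in the Otx2 difference was not tested.

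The balance of both homeobox genes was compared within each library, where scaling cancels. The log2 ratio of Otx2 to Crx went from -3.10 ± 0.10 in wild type to -2.27 ± 0.04 in the knock-out (SD, n = 5 and 6), a difference of 0.83 (SE 0.05; exact permutation p = 0.00216, adjusted 0.00379). That p is the smallest the test can give, and the adjustment is over 7 ratios of related regulators. Of 7 tested coregulators of these genes 2 fell and the others were not called by limma, edgeR or DESeq2 (2 rose and 1 fell with total scaling), with a median log2 fold change of -0.10. Sp4, a zinc finger partner of Crx, fell from 3591 ± 159 to 2176 ± 106 normalized counts (-0.72, SE 0.04). Ep300, an acetyltransferase with the highest count among them, fell by 0.21 on the log2 scale, but the call ended with total scaling (-0.07) and without wild-type replicate 4 or 5 (-0.18 to -0.17).

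Neurod1, a bHLH factor that maintains photoreceptors and promotes thyroid hormone receptor expression in mouse cones, stood at 6837, 7247, 7753, 7854 and 7447 normalized counts in wild type. In the knock-out it ran from 10069.6 to 11597, with a median of 10623, above every wild-type library, with a log2 fold change of 0.53 (SE 0.04, limma adjusted p = 1.16e-08). Cerkl, which overlaps Neurod1 on the same strand so that shared reads are uncertain, rose from 406 ± 48.5 to 1003 ± 118. The summed level of the bipolar markers, cells that also make Neurod1 relatives, is given with Otx2.

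Neurod4, a relative that acts in bipolar cells, rose from 4334 ± 173 to 5299.9 ± 334 normalized counts (0.29, SE 0.05), less than Neurod1. The log2 ratio of Neurod4 to Neurod1 went from -0.78 ± 0.08 in wild type to -1.02 ± 0.07 in the knock-out, a difference of -0.24 (SE 0.05; exact permutation p = 0.00433, adjusted 0.00606). Neurod2 was called at -0.23, SE 0.09, but in 10 of 22 alternatives the call ended, among them total scaling (-0.10) and the fits without wild-type replicate 1, 3 or 4 or knock-out replicate 2, 4 or 6 (-0.24 to -0.17). Neurod6, at 27.6 ± 3.74 and 19.1 ± 8.71, was not called, but passed without knock-out replicate 2 or 5 (-0.77 to -0.74). Among 9 tested bHLH fate factors 2 rose and 1 fell (3 and 0 with total scaling). Hes5, a Notch effector, rose from 104 ± 14.1 to 220.4 ± 21.6 (1.08, SE 0.10).

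Prdm1, a zinc finger repressor that keeps new photoreceptors from the bipolar fate, stood at 376, 372, 360.1, 364 and 371 normalized counts in wild type. Its coefficient of variation there was 1.72%. With 1793 reads in the 5 libraries together, counting alone would give a larger spread, so the 1.72% is not read as a steady level. In the knock-out it ran from 1599.7 to 1903, with a median of 1691, far above wild type. The log2 fold change was 2.23 (95% interval 2.12 to 2.34, limma adjusted p = 5.46e-17), and the log2 ratio of Prdm1 to Crx went from -6.08 ± 0.03 in wild type to -3.64 ± 0.11 in the knock-out, a difference of 2.43 (SE 0.05; exact permutation p = 0.00216, adjusted 0.00379). Lymphocytes and endothelium also make Prdm1. The 6 lymphocyte markers failed the filter and summed to 3.59 to 8.73 normalized counts in wild type and 5.83 to 15.7 in the knock-out, near 0. The endothelial sum is given with Mef2c. The part of lymphocytes and endothelium in the Prdm1 difference was not tested.

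The Prdm relatives moved less than Prdm1. Of 11 tested, 2 rose and 4 fell (3 and 1 with total scaling), with a median log2 fold change of -0.20. Prdm8, a repressor made in bipolar and amacrine cells, rose from 1574 ± 125 to 2563 ± 218 normalized counts (0.70, SE 0.06). Prdm9, a meiotic histone methyltransferase, fell from 393 ± 73.3 to 251 ± 36.2 (-0.63, SE 0.12). Prdm10 was called at -0.31, SE 0.10, and the call ended with total scaling (-0.18).

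Sall3, a zinc finger factor needed for short-wavelength opsin in mouse cones, stood at 182, 203, 165, 183 and 176 normalized counts in wild type and at 1032 to 1299.9, with a median of 1182, in the knock-out. The groups lay far apart. Its log2 fold change was 2.70 (95% interval 2.55 to 2.84, limma adjusted p = 1.94e-16), larger in size than that of 98.7% of tested genes. Horizontal cells also make Sall3 in the mouse. Of 4 horizontal cell markers 1 rose and 1 fell, with a sum of 4630.2 to 4899.9 normalized counts in wild type and 4785 to 5847 in the knock-out. Their part in the Sall3 difference was not tested.

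Sall1 rose from 48.1 ± 13.2 to 86.5 ± 10.5 normalized counts (0.87, SE 0.16). Sall4, known from embryonic stem cells, had 13 reads in the wild-type libraries together and 127 in the knock-out libraries. It passed the filter on low values only through the knock-out libraries (15.2 to 26.1 normalized counts, against 0.92 to 3.59 in wild type). Its call as higher is therefore not read as a result. Sall2, the most abundant relative by count, was called at -0.14, SE 0.04, and the call ended with total scaling (-0.0043). The log2 ratio of Sall1 to Sall3 went from -1.93 ± 0.40 in wild type to -3.76 ± 0.20 in the knock-out, a difference of -1.83 (SE 0.20; exact permutation p = 0.00216, adjusted 0.00379), so Sall3 gained on Sall1 although both rose.

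Casz1, a zinc finger factor that promotes the rod fate in mice, stood at 5233, 5870.2, 5512, 5615 and 5940.4 normalized counts in wild type and at 4352 to 5387, with a median of 5047, in the knock-out. The ranges overlapped: knock-out replicates 3, 5 and 6 reached into the wild-type range and the others lay below it. Its log2 fold change was -0.20 (SE 0.06, limma adjusted p = 0.0143), but -0.06 with total scaling (adjusted p = 0.449). Casz1 acts with the NuRD chromatin remodelling complex in mouse retinal progenitors. Of 9 tested NuRD genes 2 rose and 1 fell (6 and 1 with total scaling), with a median log2 fold change of 0.04. Mta2 fell from 3093 ± 194 to 1666 ± 76.3 normalized counts (-0.89, SE 0.05), while the deacetylase gene Hdac1 (0.29, SE 0.07) and Gatad2a (0.20, SE 0.04; 0.34 with total scaling) rose. Chd4, the most abundant, was at 7238 ± 189.8 and 7724 ± 366 and not called, but passed with total scaling (0.23), with 3 other alternatives in scaling or tool, and without knock-out replicate 1 (0.11).

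Samd7, a SAM domain protein of Polycomb repressive complex 1 that silences non-rod genes in mouse rods, stood at 3297, 3486, 3335, 2963 and 3019 normalized counts in wild type. In the knock-out it ran from 1438 to 1551, with a median of 1512, well below wild type, with a coefficient of variation of 3.30%. Samd7 fell with a log2 fold change of -1.10 (SE 0.05, limma adjusted p = 3.46e-13). Among 21 tested genes of that complex and its SAM domain relatives 9 rose and 2 fell (13 and 1 with total scaling), with a median log2 fold change of 0.12. Phc2, a Polyhomeotic subunit with a SAM domain, fell from 2544 ± 171 to 1362 ± 57.0 (-0.90, SE 0.05). Samd1 (0.64, SE 0.07), Scml2 (0.59, SE 0.17) and Cbx6 (0.20, SE 0.04; 0.33 with total scaling), the most abundant of the list, rose. Of 7 genes of Polycomb repressive complex 2, which methylates histone H3, 1 rose and 3 fell (2 and 3 with total scaling). Those that fell were Jarid2 (-0.36, SE 0.04), Ezh1 (-0.29, SE 0.04) and Suz12 (-0.27, SE 0.05), which with total scaling stood at -0.22, -0.15 and -0.13. Samd11, a partner of Samd7 in mouse rods, was not analysed here.

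Pias3, a SUMO ligase that modifies photoreceptor regulators in mouse rods and cones, stood at 1846, 1949, 1883, 2025 and 2170.1 normalized counts in wild type and at 1643 to 2005, with a median of 1738, in the knock-out. The ranges overlapped, with knock-out replicates 3 and 6 inside that of wild type. The log2 fold change of -0.14 (95% interval -0.26 to -0.01, limma adjusted p = 0.0626) missed the threshold and was -0.0019 with total scaling. Leaving out wild-type replicate 1 or knock-out replicate 3 or 6 (-0.17 to -0.16) brought it past the threshold. So did the replicate block (-0.17, limma adjusted p = 0.0176), a fit that also leaves out knock-out replicate 6. The opposite-strand neighbour Nudt17, which overlaps Pias3, was at 47.2 ± 11.6 and 71.2 ± 9.94.

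Pias1 and Pias4, relatives of Pias3, were called at -0.17, SE 0.04 and -0.18, SE 0.06, and both calls ended with total scaling (-0.04 and -0.04). Pias2, at 1885 ± 79.3 and 1857 ± 45.1 normalized counts, was not called (-0.02, SE 0.04), and its sign turned with total scaling (0.12). The log2 ratio of Pias1 to Pias3 went from -0.08 ± 0.10 in wild type to -0.11 ± 0.13 in the knock-out, a difference of -0.03 (SE 0.07; exact permutation p = 0.645, adjusted 0.645) that missed the threshold. Of 15 tested genes of the Pias family and SUMO pathway 3 rose and 4 fell (9 and 0 with total scaling). The SUMO protease gene Senp7 (0.28, SE 0.04) and the SUMO-activating enzyme gene Uba2 (0.18, SE 0.05; 0.32 with total scaling) rose. The SUMO ligase gene Ranbp2, the most abundant, was called at -0.19, SE 0.04, a call that ended with total scaling (-0.06).

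Mef2c, a MADS-box factor known as a target of Nrl, stood at 3382, 3323, 3401, 3133 and 3247 normalized counts in wild type and at 229 to 323, with a median of 281, in the knock-out. The groups lay far apart. The fitted log2 difference was -3.57 (95% interval -3.73 to -3.41, limma adjusted p = 2.16e-17), larger in size than that of 99.4% of tested genes. The knock-out libraries together held 1744 Mef2c reads. Microglia and endothelium also make Mef2c. Of 8 microglia markers 8 rose, with a sum of 716 to 1001 normalized counts in wild type and 2553 to 3745 in the knock-out. Of 6 endothelial markers 1 was called lower, Pecam1, a call that ended in 7 alternatives, among them total scaling (-0.17) and the fits without wild-type replicate 1 or 4 or knock-out replicate 3 or 6 (-0.28 to -0.25). Their sum was 4596 to 5615 normalized counts in wild type and 4913 to 5779 in the knock-out. The part of microglia and endothelium in the Mef2c difference and in the remaining Mef2c reads was not tested.

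Mef2d, which acts with Crx at photoreceptor enhancers in the mouse, stood at 4422, 4357, 4551, 4875 and 5358 normalized counts in wild type and at 4931 to 5807, with a median of 5198, in the knock-out. Wild-type replicate 5 lay inside the knock-out range and the other wild-type libraries below it. Its log2 fold change was 0.16 (SE 0.05, limma adjusted p = 0.0193) and 0.30 with total scaling. The call ended when wild-type replicate 2 or 3 (0.14 to 0.15) was left out, and with both shallowest libraries left out (0.14). The antisense gene 1700113A16Rik was at 726 ± 39.7 and 850.3 ± 31.6, and the use of strand in counting is not given in the sources used here, so a part of so small a difference is uncertain.

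The log2 ratio of Mef2c to Mef2d, which bind the same letters, went from -0.51 ± 0.16 in wild type to -4.25 ± 0.24 in the knock-out, a difference of -3.73 (SE 0.12; exact permutation p = 0.00216, adjusted 0.00379). Mef2a was called at -0.14, SE 0.05, but the call ended in 12 alternatives, among them total scaling (-0.00094) and the fits without wild-type replicate 2, 3 or 5 or knock-out replicate 1, 2, 3 or 6 (-0.13 to -0.11). Its log2 ratio to Mef2d went from -1.78 ± 0.17 in wild type to -2.08 ± 0.14 in the knock-out, a difference of -0.30 (SE 0.10; exact permutation p = 0.0216, adjusted 0.0253). That call ended without knock-out replicate 1, 2, 3 or 6 (adjusted p = 0.0556 each, exact permutation) and without both shallowest libraries (adjusted p = 0.0926). Mef2b, at 23.9 ± 4.47 and 16.7 ± 7.78 normalized counts, was not called, but passed without knock-out replicate 3 (-0.77). Of 7 tested relatives and cofactors 1 rose and 2 fell (2 and 0 with total scaling). Hdac9, a deacetylase that binds Mef2 proteins, was called at -0.22, SE 0.06 (-0.08 and not called with total scaling). Mapk7, a kinase of Mef2 proteins, was called at 0.30, SE 0.12, but not without wild-type replicate 1, 2 or 3 or knock-out replicate 1, 3, 4, 5 or 6 (0.20 to 0.31). Hdac5, the most abundant of this list, was at 4839 ± 133 and 4898 ± 274 and was called only with total scaling (0.15).

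**Figure D2:**
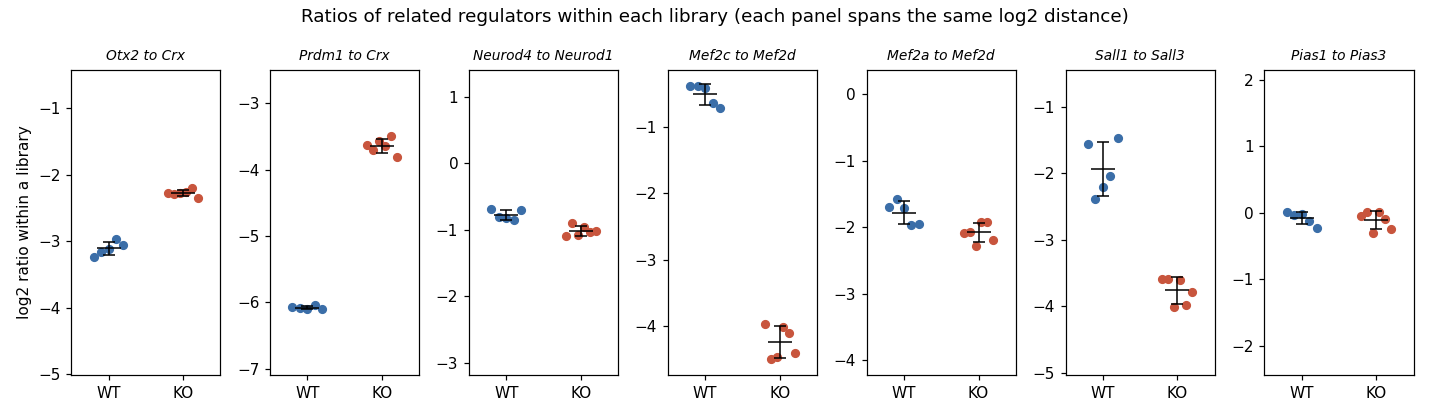
Log2 ratio of normalized counts of 2 related regulators within each library, for 7 pairs, in wild type (blue, 5 libraries) and Nrl knock-out (red, 6 libraries), with the mean and SD in black. The mean ratios of Mef2c to Mef2d (-0.51 and -4.25) and Prdm1 to Crx (-6.08 and -3.64) lie furthest apart, and the points of Pias1 to Pias3 overlap.

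**Figure D3:**
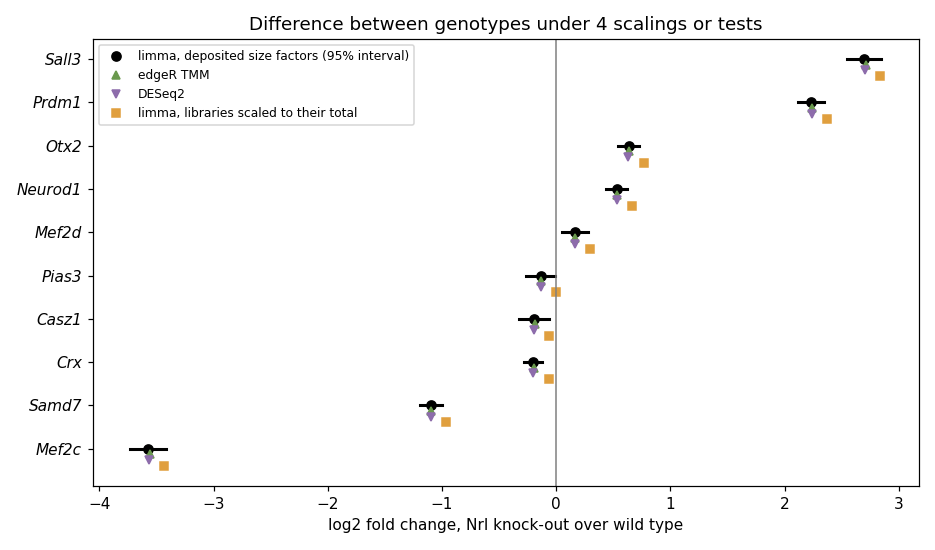
Log2 fold change of each of the 10 regulators, knock-out over wild type, from limma with the deposited size factors and its 95% interval, and from edgeR, DESeq2 and limma with libraries scaled to their total. Total scaling moves each gene to the right and leaves the direction of each of the 10. It puts Crx at -0.06, Casz1 at -0.06 and Pias3 at -0.0019.

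Levels were compared between genes as normalized counts per kb of merged exons (GENCODE M21, GRCm38). In wild type Crx had the highest level per kb, at 7893 ± 191 (SD, n = 5), followed by Neurod1 at 2722 ± 149.9. Samd7 (805 ± 55.4), Mef2d (787 ± 68.9) and Otx2 (688 ± 39.7) came next, and the ranges of neighbours among these 3 overlapped. Pias3 (504 ± 32.9) and Casz1 (461 ± 23.4) overlapped as well. Mef2c (209.8 ± 6.98), Prdm1 (66.1 ± 1.14) and Sall3 (24.3 ± 1.82) were lowest and did not overlap.

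In the knock-out Crx (6870.2 ± 296, SD, n = 6) and Neurod1 (3923 ± 196) were again highest per kb, and Otx2 (1065 ± 41.0) stood above Mef2d (879.7 ± 50.8) without overlap. Pias3 (459 ± 40.1), Casz1 (403 ± 41.2) and Samd7 (376 ± 12.4) followed, each overlapping the next. Prdm1 (311 ± 23.2) and Sall3 (158 ± 14.6) stood above Mef2c, which was lowest at 17.7 ± 2.33. The exon lengths come from another build and annotation than the counts, so neighbours close in level are uncertain in order.

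**Figure D4:**
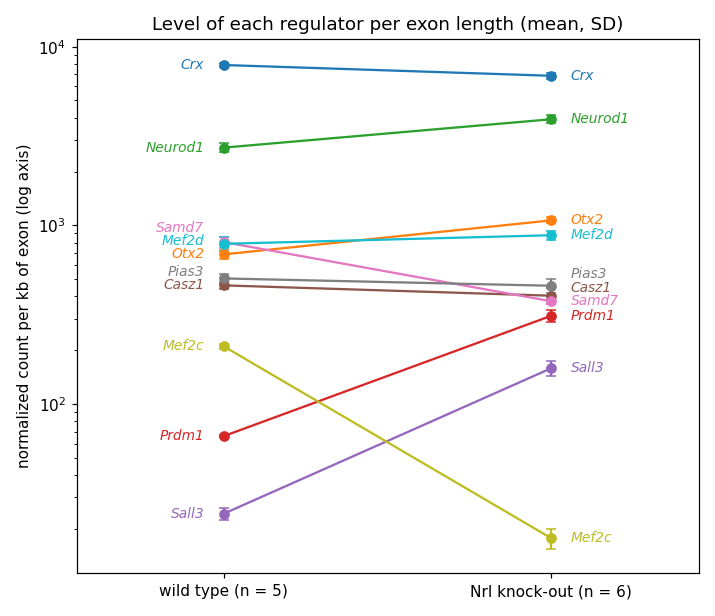
Normalized counts per kb of exon (log axis) of the 10 regulators in wild type and Nrl knock-out, as means with SD. Crx and Neurod1 stay highest, Prdm1 goes from 66.1 to 311 and Sall3 from 24.3 to 158, and Mef2c goes from 209.8 to 17.7.

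For each regulator changed at least 2-fold, the genes most like it in profile were found by the root mean square difference of log2 values over 11 libraries, centred on wild type. They were sought among 11353 tested genes averaging 100 normalized counts or more. Closest to Prdm1 were Cdkl1 (0.0876), Mpp6 (0.0945) and Jam3 (0.10). Closest to Sall3 were Parvb (0.0668), Rxrg (0.112), a retinoid receptor gene, and Rgs22 (0.113). Closest to Samd7 were Hipk3 (0.0843), Gnaz (0.0919) and Prom1 (0.0929), which encodes a membrane protein of photoreceptor discs. Closest to Mef2c were Fam160a1 (0.104), Col4a3 (0.189) and Polg2 (0.202). Centred on wild type, this measure favours genes with a like difference between genotypes. The log2 fold changes were 2.23 to 2.25 for the genes near Prdm1 and 2.65 to 2.76 near Sall3. They were -1.14 to -0.996 near Samd7 and -3.66 to -3.53 near Mef2c. Whether these genes vary together among libraries of 1 genotype was not tested.

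Of 15 tested fate factors of other retinal cells 6 rose and 3 fell (8 and 1 with total scaling). Notch1, a receptor that holds progenitors undifferentiated, rose from 686 ± 105 to 2297 ± 173 normalized counts (1.75, SE 0.09), and Lhx4, a homeobox gene of mouse cones and bipolar cells, from 339.6 ± 58.4 to 799.8 ± 52.9 (1.25, SE 0.10). Pax6, the most abundant by count, was at 6517 ± 226 and 6115 ± 194 and not called (-0.09, and 0.04 with total scaling), but it passed without wild-type replicate 2 or knock-out replicate 5 (-0.11 to -0.10). Over the 10 lists of relatives, partners and other fate factors, 104 of 114 genes were tested, of which 28 rose, 23 fell and 4 changed at least 2-fold. The 28 and the 4 include Sall4, which passed the filter only through the knock-out libraries. Of all tested genes 23.6% were called higher, 22.7% lower and 7.77% at least 2-fold in either direction. The median absolute log2 fold change of the 104 genes was 0.19, as over all tested genes.

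**Figure D5:**
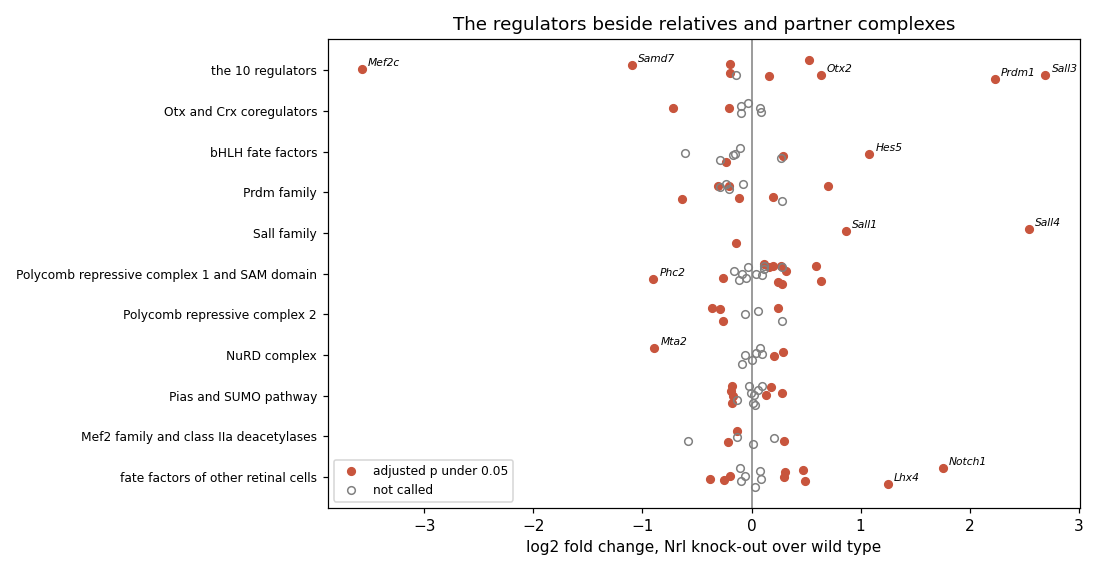
Log2 fold change, knock-out over wild type, of the 10 regulators and of the tested genes of 10 lists of relatives and partners; filled points were called by limma at an adjusted p under 0.05. Most points of the lists lie near 0, with Sall4, Notch1, Lhx4 and Hes5 to the right and Phc2 and Mta2 to the left. Sall4 passed the filter on low values only through the knock-out libraries.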

How the data were processed

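Genotype and replicate number came from the sample titles. The authors deposited normalized counts, a signal made by dividing reads per gene by 1 size factor per library, and, per the file headers, their own mean, log2 fold change and adjusted p-value per gene, none of which is printed here; 1 further column of medians was not used. Per the submitters' processing notes, mm9, DESeq, HTSeq 0.6.0 and TopHat2 2.1.1 were used, in roles and order not stated; which annotation was counted, and whether by strand, is not given in the sources used here. The labels name polyA RNA and also removal of ribosomal RNA, with stranded reads of 50 bases.

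A gene was tested if 5 or more libraries reached a normalized count of 10. limma 3.58.1 (R 4.3.3; trend, robust, two-sided) was fitted to log2(normalized count + 1) with genotype alone, with Benjamini-Hochberg adjustment over 14584 genes; this scale understates changes of low genes. Of 8 planned ratios 7 were tested, since Samd11 was not analysed here, nor was Samd13. All values were whole multiples of 1 step per library within 1e-06 of a read, so reads were recovered and run in edgeR 4.0.16 and DESeq2 1.42.0, which called 6760 and 6780 genes against 6752 with limma. The step of wild-type replicate 5 is so near 1 that an automatic test for such steps gives no answer there, but it was used like the others. The limma fit alone was tested on simulated counts.

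Members and gene lists were chosen with earlier results of these data known. Named are the 10 members, the small families Otx, Sall, Mef2, Pias and Neurod, and of each other list the called genes with the 3 largest changes and the most abundant gene; 1 gene that this rule names is not reported here. Of the remaining marker lists, amacrine cells had 6 of 6 genes called lower, ganglion cells 5 of 5, and Müller glia 1 higher and 1 lower of 4. With total scaling 5 amacrine and 3 ganglion markers were called lower, and 2 Müller glia markers higher and 1 lower. Of all tested genes, 22.7% were called lower, and 11.7% with total scaling.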

Additional observations from a re-analysis of the deposited data

How the results depend on the processing

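Over the 10 members and 22 alternatives, 211 of the fold changes kept direction and side of the threshold and 0 changed sign. Otx2, Neurod1, Prdm1, Sall3, Samd7 and Mef2c were called in each. Over 78 named genes, 1625 fold changes kept both, 63 lost a call, 21 gained one and 4 changed sign; the cause was not tested. With total scaling 5861 genes were called higher and 1711 lower, against 3448 and 3304, and 2 members lower. The fold changes of Pias2 (0.12) and Pax6 (0.044) changed sign there, and that of Pias2 also when totals excluded the 10 genes of highest count (0.011). Leaving out each library in turn gave 6185 to 6741 called genes. It gave -0.0057 to 0.037 for Hdac5, -0.070 to 0.0044 for the log2 ratio of Pias1 to Pias3, and -0.35 to -0.25 for Mef2a to Mef2d, whose adjusted p then reached 0.0556. Without both shallowest libraries, chosen after seeing the data, that ratio differed by -0.28 (adjusted p = 0.0926).

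Deviations of same-numbered libraries of both genotypes correlated weakly (-0.13 to 0.22), and the labels do not state that they are paired. With the number as a replicate block, which leaves out knock-out replicate 6, 6793 genes were called. Without that library and without the block, 6369 were called. Whether same-numbered libraries share a batch was not tested. For ratios, 5 pairs cannot give an exact p below 0.0625, so none could pass; the paired differences were 0.85 for Otx2 to Crx, 2.47 for Prdm1 to Crx, -0.24 for Neurod4 to Neurod1, -3.70 for Mef2c to Mef2d, -0.28 for Mef2a to Mef2d and -1.82 for Sall1 to Sall3.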

Other observations

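Some genes of the lists failed the filter on low values and carry no test. Atoh7, a bHLH gene of early ganglion cell precursors, had 3 reads over the 5 wild-type libraries and 65 over the 6 knock-out libraries. Otx1, a relative of Otx2, had 54 and 19.

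Casz1, Pias3 and Mef2d, whose ranges overlapped between genotypes, were each highest among wild-type libraries in replicate 5, at 5940.4, 2170.1 and 5358 normalized counts. That library had the lowest wild-type score on the second principal component (-15.6). Among knock-out libraries Pias3 and Mef2d were highest in replicate 3, at 2005 and 5807, whose score was -13.2. Replicate 5, with a like score of -13.4, was at 1738 and 5205, below the knock-out means of 1797 and 5265. Casz1 was at 5361, 5387 and 5372 in knock-out replicates 3, 5 and 6 (scores of -13.2, -13.4 and -7.34). In knock-out replicates 1, 2 and 4 (scores of 4.15, 19.0 and 10.2) it was at 4352, 4378 and 4732. What this component reflects was not tested.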
